A study of Mus musculus with 4 samples.

Results

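Cytosolic ribosomal protein genes encode the proteins that are assembled with ribosomal RNA into the large (Rpl genes) and small (Rps genes) subunits of the ribosome. Members were chosen by gene symbol alone: Rpl or Rps followed by a number and an optional letter, plus Rplp0, Rplp1, Rplp2, Rpsa, Rps27a, Rps27l and Rpl36al, without symbols ending in -ps. This rule found 89 of the 47937 gene entries of the count table, 53 with large and 36 with small subunit symbols. Of these, 5 are annotated as pseudogenes. The 89 entries were compared between untreated and genistein-exposed MEF cells. MEF cells are mouse embryonic fibroblasts, here a wild-type line in culture, and genistein is a plant isoflavone. The untreated group had 2 libraries of cells without genistein and the genistein group had 2 libraries of cells exposed to 50 µM for 24 h. The labels give no other agent, allele or cross, and both groups came from the same kind of culture. Nothing in the labels says whether the libraries of a group came from separate cultures, so p-values measure the spread between these libraries, which may be technical.

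Ribosomal proteins are needed in equal numbers per ribosome, apart from the stalk proteins, and free copies are quickly degraded. Their mRNAs are abundant in growing cells. Most of them begin with a C followed by a run of pyrimidines, the 5′ terminal oligopyrimidine (TOP) motif, through which the kinase complex mTORC1 and the RNA-binding protein Larp1 control their translation and stability. Several genes have paralogs that can take the place of the usual protein in the ribosome, and nearly every gene has many intronless copies elsewhere in the mouse genome that arose by reverse transcription of its mRNA.

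The 4 libraries held 28591958 to 31464284 counts. Fibroblast markers were abundant, with 42280 raw counts of Col3a1 and 64964 of Vim in untreated replicate 1, although Thy1 was at 0 in all 4 libraries. Of the 8 markers of other cell types, the epithelial Epcam was at 0 in every library and Cdh1 had 4 to 8 raw counts. The immune Ptprc and the endothelial Cdh5 did not exceed 1 count, and the endothelial Pecam1 had 2 and 6 in the untreated and 8 and 9 in the genistein libraries. The pluripotency genes Nanog (26 and 25 against 38 and 41 raw counts) and Pou5f1 (7 and 10 against 14 and 15) were low, with more counts in both genistein libraries. Cd68, a lysosomal protein of macrophages and other cells, had 84 and 62 raw counts in the untreated and 225 and 210 in the genistein libraries. The part of these markers in the results below was not tested.

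Ribosomal protein transcripts took a smaller share of all gene counts after genistein. The 89 entries held 2.51% and 2.49% of the gene counts in the untreated libraries, against 1.98% and 2.02% in the genistein libraries. The groups did not overlap. In RNA from a whole culture, fewer cells of a type and less of a transcript per cell cannot be told apart, and a share says nothing about the amount of RNA per cell. The large subunit entries made up 57.1% of the members' counts in each untreated library, against 56.3% and 56.2% after genistein.

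Gene by gene, the decrease was broad and shallow. Normalised counts are counts divided by the effective library size and rescaled to the mean effective library size, and log2 fold changes are genistein against untreated throughout. After removal of entries with low counts, 85 of the 89 entries were tested. The adjusted p-value (edgeR's quasi-likelihood test, Benjamini-Hochberg over all genes and repeats) was under 0.05 for a decrease in 83 of them, for an increase in 1 (Rps27l), and above it in 1 (Rplp0). Over all tested genes 38.2% were lower and 33.5% higher by the same rule, and among genes with a mean normalised count over 1000 it was 56.1%. In 84 of the 85 entries both genistein libraries lay below both untreated libraries, against 44.6% of all tested genes. In the other, Rps27l, both lay above, as they did in 40.7% of all tested genes. The thresholds of the study also ask for a change of more than 1 on the log2 scale and for more than 100 normalised counts on average. By these, 11 entries were lower, 7 of the large and 4 of the small subunit (background 4.16%). No entry was higher by these thresholds, against 3.92% of all tested genes. The median log2 fold change was -0.52 over the members and -0.03 over all tested genes.

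**Figure D1:**
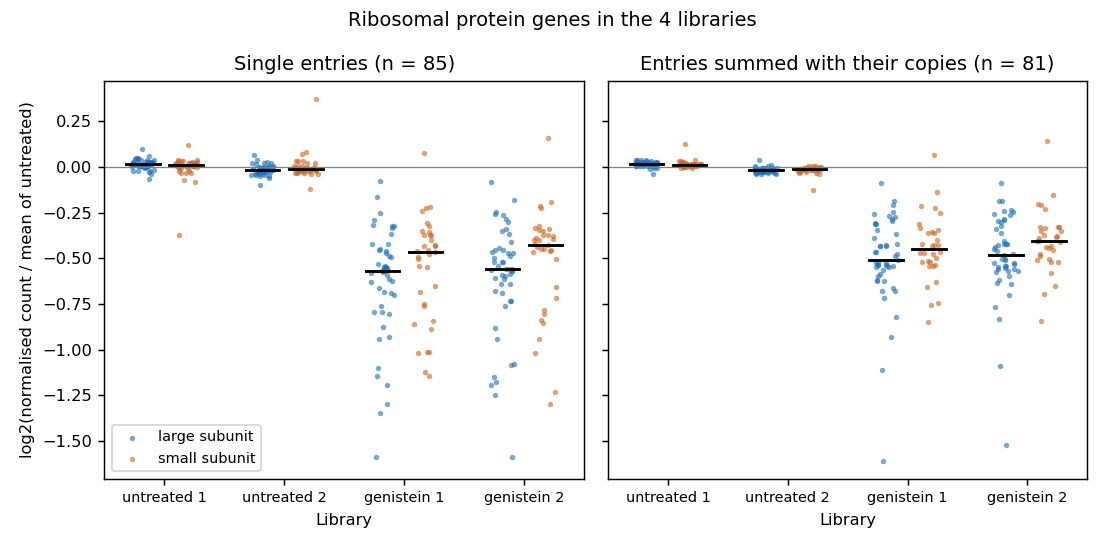
Normalised count of each member in the 4 libraries relative to its mean in the untreated libraries (y axis, log2; x axis, library), for the 85 tested entries (left) and for 81 genes summed with their copies (right). Points are entries (left) or genes (right), coloured by subunit. Black bars are medians, which lie at -0.57 and -0.56 (large) and -0.46 and -0.43 (small) in the genistein libraries on the left.

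The genistein libraries resembled each other in this respect. On the log2 scale, the median of the 85 entries relative to their untreated mean was -0.55 in genistein replicate 1 and -0.50 in genistein replicate 2, while the untreated libraries differed from their own mean by 0.01 in either direction. Among all genes the corresponding medians were -0.03 and -0.04.

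In the large subunit 49 of 50 entries, the pseudogene Rpl6l included, were lower, at a median of -0.56. Those of the small subunit, the pseudogenes Rps3a2, Rps3a3 and Rps12l1 included, stood at a median of -0.45, with 34 of 35 lower and 1 higher. The medians differed by -0.11 on the log2 scale (large minus small), and the quartiles, -0.72 to -0.46 for the large and -0.72 to -0.36 for the small subunit, overlapped widely. The 33 tested proteins that are kept from bacteria to mammals had a median of -0.51. The 48 other members without the paralogs, pseudogene entries included, had -0.53. The 30 members that carry a small nucleolar RNA gene in an intron had a median of -0.52, as did the 55 members that do not.

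Many counts stood in entries of near-identical genomic copies, and the entry of a gene often held a minor part of the counts summed over the gene and its copies. Which of these reads came from the gene and which from a copy was not tested, and how the counter divided them is not given in the sources used here. A search of the annotated transcripts with the members' mature mRNAs (at least 85% identity over at least 50% of the copy) found 1181 copies of 82 genes. A count was recorded in 667 of them, and 919 carried names of the Gm series, which the symbol suffix -ps does not reveal. The copies together held 44.7% to 45.2% of the counts of members and copies in each library. Members and copies together made up 4.56% and 4.50% of gene counts without genistein, against 3.60% and 3.68% with it.

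The small subunit gene Rps27 shows how far this can go. Its coding sequence starts with the same 30 bases as Rps27rt, an intronless copy on another chromosome, whereas the paralog Rps27l differs at 10 of these positions. The sequences, with the bases of Rps27l that differ from Rps27 in capitals, are given because they show which entries a read of this stretch can tell apart.
Rps27: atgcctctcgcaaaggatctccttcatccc
Rps27rt: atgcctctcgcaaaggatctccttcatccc
Rps27l: atgccCctGgcTaGAgatctGTtAcaCccT
Rps27 lies at chr3:90212522-90213651 (minus strand), Rps27rt at chr9:114982366-114982739 (minus strand) and Rps27l at chr9:66946086-66949516 (plus strand), all on GRCm38. Of the windows of 100 bases along the Rps27 mRNA, 98.4% also occurred in a copy, against 0% along Rps27l. The Rps27 entry had 240 and 264 normalised counts without genistein against 148 and 144 with it. The Rps27rt entry had 7241 and 6815 against 6495 and 6430. The log2 fold change was -0.78 (SE 0.11, edgeR adjusted p = 6.3e-06) for the Rps27 entry and -0.12 (SE 0.038, edgeR adjusted p = 0.0088) for Rps27rt. Summed over the gene and its copies it was -0.15 (SE 0.038, edgeR adjusted p = 0.0022). The gene entry held 2.86% of the summed counts.

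When every gene was summed with its copies and all genes were fitted again, 81 genes were tested. Of these, 79 were lower, 1 was higher (Rps27l) and 1 did not pass the test (Rplp0), with 38.5% of all genes lower and 33.6% higher in this fit. The median moved from -0.52 to -0.45, and the spread of the large subunit log2 fold changes fell from an SD of 0.30 to 0.24. The large subunit median was then -0.51 and the small subunit median -0.43. Only 2 genes, Rpl22l1 and Rpl7l1, were still past the thresholds of the study, where 4.25% of all genes were. The other 9 entries that had passed them alone had summed log2 fold changes of -0.88 to -0.31. Their entries held 4.39% to 25.4% of the summed counts.

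**Figure D2:**
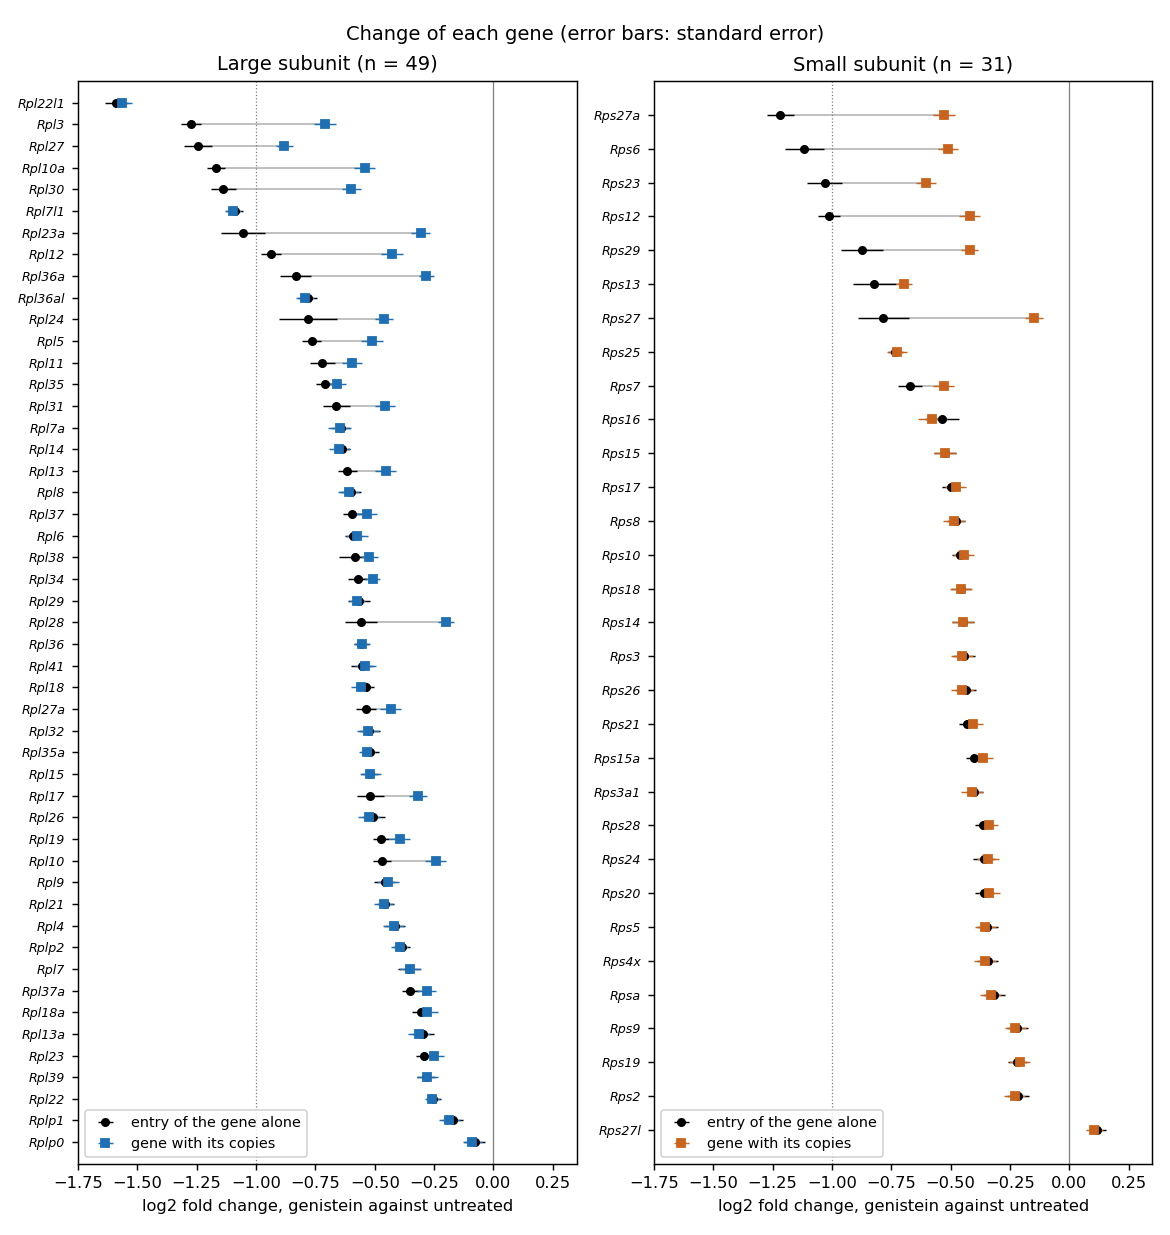
log2 fold change (x axis, genistein against untreated) of the entry of each gene alone (black circles) and of the gene summed with its copies (coloured squares), for 49 large and 31 of the 32 tested small subunit genes (1 is not drawn), with standard errors as bars and a dotted line at -1. Grey lines join the values of a gene, and 16 entries lie more than 0.25 below the value of the gene with its copies while none lies more than 0.25 above it.

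The size of the change in the entries went with the share of the summed counts that the gene entry held. The 21 entries that held under 15% had a median log2 fold change of -0.78, the 27 with 15% to 60% had -0.52, and the 33 with 60% or more had -0.42. After summing, the medians of the same groups were -0.46, -0.48 and -0.42. Across the 81 genes, which share their libraries, Spearman's rho between share and log2 fold change was 0.59 for the entries and 0.11 for the sums. Between mean normalised count and log2 fold change it was 0.70 for the entries and 0.23 for the sums. Share and count were not separated. In 57 of the 81 genes the entry and the sum differed by at most 0.1.

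**Figure D3:**
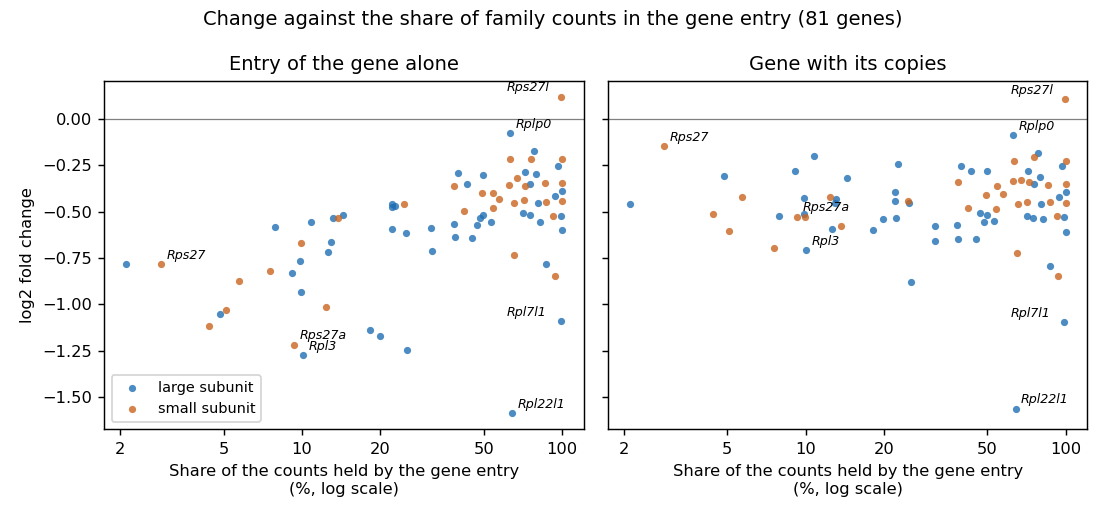
log2 fold change (y axis) against the share of the summed counts held by the entry of the gene (x axis, percent, log scale) for the entry alone (left) and the gene with its copies (right). Points are the 81 tested protein-coding genes, coloured by subunit. Entries with low shares reach lower values on the left, and the summed values on the right do not fall with the share.

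Among the large subunit genes other than the paralogs, the lowest entry was Rpl3, a protein close to the peptidyl transferase centre. It had 3700 and 3488 normalised counts in the untreated and 1461 and 1513 in the genistein libraries, which gave a log2 fold change of -1.27 (SE 0.042, edgeR adjusted p = 1.7e-13). Its intronless copy Rpl3-ps1 held far more, with 28060 and 26944 against 17580 and 17714, and changed by -0.64 (SE 0.046, edgeR adjusted p = 3.0e-09). For Rpl3 with its copies the log2 fold change was -0.71. The sequences of gene and copy are shown because they do not differ in the first 30 coding bases, and 99.8% of the copy is identical to the mRNA.
Rpl3: atgtctcacaggaaattctcagctcccagg
Rpl3-ps1: atgtctcacaggaaattctcagctcccagg
Rpl3 lies at chr15:80077791-80091868 (minus strand) and Rpl3-ps1 at chrX:13202571-13203780 (plus strand) on GRCm38.

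Rpl27 fell in its entry and in the sum. Its entry had 1663 and 1712 normalised counts in the untreated and 665 and 761 in the genistein libraries (log2 fold change -1.24, SE 0.060, edgeR adjusted p = 1.8e-11). With its copies the counts were 6175 and 6066 against 3215 and 3437, a log2 fold change of -0.88 (SE 0.036, edgeR adjusted p = 1.8e-12), the largest decrease of a gene that is not an l-type paralog. Rpl10a, Rpl30 and Rpl23a were past -1 in their entries (-1.17, -1.14 and -1.05), and their summed values were -0.54, -0.60 and -0.31. Rpl12, part of the base of the stalk, lay just outside the threshold in its entry (-0.94) and at -0.43 in the sum.

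Genes at the other end of the large subunit encode the stalk, the flexible arm that recruits translation factors. Rplp0, its anchor, had 37089 and 36581 normalised counts in the untreated group, against 34924 and 34826 after genistein. The log2 fold change was -0.08 (SE 0.044, edgeR adjusted p = 0.12) and with its copies -0.09 (edgeR adjusted p = 0.058). Both genistein libraries were nevertheless below both untreated libraries. Rplp1 had 20110 and 19835 normalised counts against 17822 and 17623, a log2 fold change of -0.17 (SE 0.046, edgeR adjusted p = 0.0030). Scaled by library totals it was -0.10 and did not pass the test (edgeR adjusted p = 0.10). Rplp2, its partner in the stalk dimers, had 6389 and 6746 against 4904 and 5144 (log2 fold change -0.39, SE 0.035, edgeR adjusted p = 5.2e-08).

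Rpl5 and Rpl11 form a particle with 5S rRNA that is built into the large subunit and that, when free, binds the p53 ligase Mdm2. Rpl5 had 2436 and 2435 normalised counts in the untreated and 1404 and 1464 in the genistein libraries, which gave a log2 fold change of -0.77 (SE 0.041, edgeR adjusted p = 6.5e-11). Rpl11 had 1448 and 1370 against 833 and 880, a log2 fold change of -0.72 (SE 0.054, edgeR adjusted p = 4.7e-09). With their copies the values were -0.51 and -0.60, and the entries held 9.83% and 12.6% of the sums.

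In the small subunit, the lowest entry was Rps27a, which encodes a ubiquitin unit fused to a ribosomal protein. It had 1583 and 1659 normalised counts in the untreated and 733 and 659 in the genistein libraries (log2 fold change -1.22, SE 0.058, edgeR adjusted p = 1.7e-11), and its sum changed by -0.53. Fau, which lies outside the symbol rule and encodes a ubiquitin-like protein fused to a small subunit protein, changed by -1.11 (SE 0.080, edgeR adjusted p = 2.8e-09) in its entry, and its copies were not summed.

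Rps6, the target of the S6 kinases downstream of mTORC1, had 604 and 573 normalised counts in its entry in the untreated and 291 and 251 in the genistein libraries (log2 fold change -1.12, SE 0.082, edgeR adjusted p = 3.4e-09). Its copy Rps6-ps4, identical over its whole length, had 10885 and 10726 against 7688 and 7852 and changed by -0.48, and the sum changed by -0.51. Rps23, a protein of the decoding centre, and Rps12 were just past -1 in their entries (-1.03 and -1.01) and at -0.60 and -0.42 in the sums. Rps29, with an entry of 5.72% of the sum, changed by -0.87 alone and by -0.42 in the sum.

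The smallest decreases of the small subunit, apart from Rps27 in the sum, were those of Rps2, Rps9 and Rps19. Rps9, whose entry held practically all of its counts, had 18069 and 18164 normalised counts against 15594 and 15532 (log2 fold change -0.22, SE 0.045, edgeR adjusted p = 0.00041). Rps2 and Rps19 also had entries at -0.22, and their sums were -0.23 and -0.21. Rps3, a protein of the mRNA entry channel, changed by -0.44 (SE 0.047, edgeR adjusted p = 2.9e-07), from 21055 and 20313 to 15014 and 15385 normalised counts. Rpsa, also known as a laminin receptor, changed by -0.32 (SE 0.045, edgeR adjusted p = 9.7e-06), from 26650 and 26362 to 21397 and 21165.

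The paralogs included the lowest and the highest value of all members. Of 8 pairs listed, 4 had a paralog with too few counts to test. The testis-expressed paralogs Rpl39l and Rpl10l and the entry Rps4l were at 0 raw counts in all 4 libraries, and the muscle paralog Rpl3l had 2 counts in genistein replicate 2 and none elsewhere. Their usual partners Rpl39, Rpl10 and Rps4x changed by -0.29, -0.47 and -0.34 in their entries.

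Rps27l was the only member that rose. It is a known p53 target and its coding sequence is 76.1% identical to that of Rps27. Rps27l had 3867 and 3868 normalised counts in the untreated and 4086 and 4313 in the genistein libraries, which gave a log2 fold change of 0.12 (SE 0.035, edgeR adjusted p = 0.0069), with the genistein libraries above the untreated ones. Without genistein replicate 2 the adjusted p was 0.11 and with DESeq2 0.058. The difference of the 2 log2 fold changes (Rps27l minus Rps27) was 0.90 between the entries (95% interval 0.66 to 1.14) and 0.25 between the sums (0.14 to 0.36). The count ratio of the summed Rps27l to the summed Rps27 was 0.523 and 0.552 in the untreated and 0.620 and 0.660 in the genistein libraries. With 2 libraries against 2 an exact permutation test of such a ratio cannot go below 0.333, the value found. The same test gave 0.333 for the Rpl22l1 and Rpl7l1 pairs below, from entries and from sums. For the Rpl36al pair it gave 0.667 from entries and 0.333 from sums.

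Rpl22l1 had the largest decrease of all members. Rpl22 is an RNA-binding large subunit protein that is known to repress its own paralog Rpl22l1. The Rpl22l1 entry had 2122 and 2076 normalised counts in the untreated and 698 in each of the genistein libraries, a log2 fold change of -1.59 (SE 0.048, edgeR adjusted p = 7.3e-14), or 66.7% lower. Rpl22 had 6746 and 6511 against 5577 and 5552, a log2 fold change of -0.25 (SE 0.032, edgeR adjusted p = 2.5e-06). The difference was -1.34 between the entries (95% interval -1.46 to -1.21) and -1.31 between the sums (-1.42 to -1.19). Here the copies did not alter the picture. The main copy of Rpl22l1 is Gm15421, whose first coding bases are the same as those of the gene, and it changed by -1.50 (SE 0.071, edgeR adjusted p = 1.4e-11), from 1173 and 1111 to 372 and 435 normalised counts.
Rpl22l1: atggcgccgcagaaagacaagaagcctaag
Gm15421: atggcgccgcagaaagacaagaagcctaag
Rpl22l1 lies at chr3:28805436-28807424 (plus strand) and Gm15421 at chr5:22528321-22529244 (minus strand) on GRCm38. None of the windows of 100 bases of the Rpl22 mRNA occurred in a copy.

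Rpl7l1, a relative of Rpl7 that takes part in the assembly of the large subunit, was lower than its partner as well. Its entry held 98.9% of the summed counts, with 4821 and 4790 normalised counts in the untreated and 2239 and 2275 in the genistein libraries (log2 fold change -1.09, SE 0.034, edgeR adjusted p = 1.1e-13). Rpl7 had 24893 and 24110 against 18999 and 19345 (log2 fold change -0.35, SE 0.046, edgeR adjusted p = 3.6e-06). The difference was -0.74 between the entries (95% interval -0.86 to -0.61) and -0.75 between the sums (-0.86 to -0.63).

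For Rpl36a and Rpl36al the answer depended on the copies. The entries had log2 fold changes of -0.83 (Rpl36a, SE 0.067) and -0.78 (Rpl36al, SE 0.040). Their difference, 0.05 with a 95% interval of -0.11 to 0.21, was smaller than its error, and the count ratios of the groups overlapped. Rpl36a itself had 689 and 718 normalised counts in the untreated and 406 and 383 in the genistein libraries, while its copy Rpl36a-ps2 had 5071 and 4804 against 4205 and 4120 (log2 fold change -0.25, SE 0.035, edgeR adjusted p = 9.0e-06). With the copies summed, Rpl36a changed by -0.28 and Rpl36al by -0.79, a difference of -0.51 (95% interval -0.62 to -0.41). Along the Rpl36a mRNA, 83.6% of the windows of 100 bases also occurred in a copy, and the rest did not. Within the first 30 coding bases, Rpl36al can be told apart from its partner but the copy cannot. The 6 bases of Rpl36al that differ from Rpl36a are in capitals.
Rpl36a: atggtgaacgtgcctaaaacccgccggaca
Rpl36a-ps2: atggtgaacgtgcctaaaacccgccggaca
Rpl36al: atggtCaacgtAccAaaaacccgAAggacT
Rpl36a lies at chrX:134585654-134588062 (plus strand), Rpl36a-ps2 at chr3:145879020-145879340 (plus strand) and Rpl36al at chr12:69182731-69184083 (minus strand) on GRCm38. Over the whole coding sequence Rpl36a and Rpl36al are 87.9% identical.

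**Figure D4:**
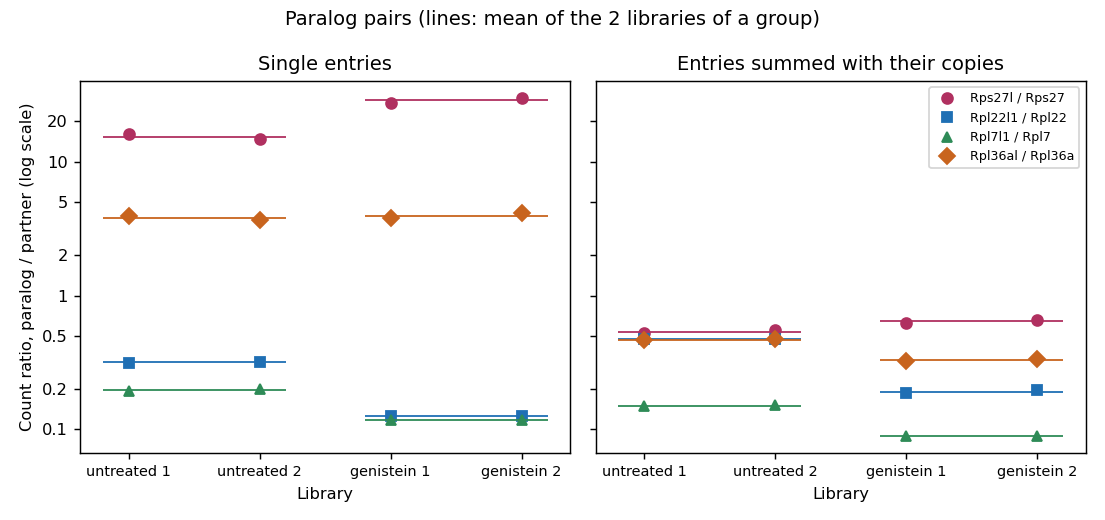
Count ratio of paralog to partner (y axis, log scale) in each library (x axis) for 4 pairs, from single entries (left) and from entries summed with their copies (right). Symbols are libraries and lines are the mean of the 2 libraries of a group. Rpl22l1 against Rpl22 falls from 0.315 and 0.319 to 0.125 and 0.126 on the left, and Rpl36al against Rpl36a is level on the left and lower with genistein on the right.

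In terms of level per length, as RPKM over the mature mRNA (reads per kilobase, scaled by library size), the 3 highest entries were Rpl41, Rpl8 and Rplp1. Rpl41, which encodes the smallest ribosomal protein, had a mean level of 2042 in the untreated and 1391 in the genistein libraries (log2 fold change -0.55). Rpl8, a universally kept protein of the large subunit core, had 1530 and 1009 (log2 fold change -0.60). Rplp1 had 1338 and 1187. These 3 abundant transcripts thus differed in their decrease, -0.17 for Rplp1 against -0.55 and -0.60 (SE 0.045 and 0.044).

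The 4 tested pseudogene entries with member-like symbols were lower as well. Rps3a2 had 5301 and 5042 normalised counts against 3674 and 3997 (log2 fold change -0.43, SE 0.040). Rps3a3 and Rpl6l changed by -0.37 and -0.51, and Rps12l1, at 24 to 64 normalised counts, by -0.71 (SE 0.28, edgeR adjusted p = 0.030). Among the copies found by sequence, these 4 entries included, 292 were tested, of which 154 were lower, 14 higher and 124 not called. By the same rule 38.2% of all tested genes were lower and 33.5% higher, a background that also holds for the counts below. Of the 147 copies with a mean normalised count over 100, the 4 entries left out, 126 were lower and 1 was higher. The median log2 fold change of these 147 was -0.42. The entries named -ps included 106 tested ones (63 lower, 1 higher, 42 not called), with Rpsa-ps1 (-1.74, at 16 normalised counts or fewer) and Rpl38-ps1 (-1.06) lowest among the called.

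The TOP motif was looked up at the annotated starts. RefSeq (GRCm38.p6) gave start windows for 64 members, with 76 starts in all. A TOP-like start was taken as a C followed by at least 4 C or T at the annotated first base, on the transcribed strand only. Of these starts 13 (17.1%), each of another member, met it, against 2.51% of 32851 annotated starts of all genes. Some examples, from 10 bases before the start to 20 bases from it and with the pyrimidine run in capitals, show how such runs compare with starts of the paralogs.
Rpl15: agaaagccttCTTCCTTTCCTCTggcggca
Rpl35: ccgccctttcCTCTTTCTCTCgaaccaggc
Rps6: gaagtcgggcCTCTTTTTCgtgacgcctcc
Rps27: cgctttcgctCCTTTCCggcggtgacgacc
Rplp2: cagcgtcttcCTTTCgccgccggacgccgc
Rps27l: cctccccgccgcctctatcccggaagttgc
Rpl22l1: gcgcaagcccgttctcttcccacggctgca
Rpl7l1: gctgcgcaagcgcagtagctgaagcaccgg
The windows lie at chr14:18270967-18270996, chr2:39005112-39005141, chr4:86857348-86857377, chr3:90213629-90213658, chr7:141447641-141447670, chr9:66946076-66946105, chr3:28805498-28805527 and chr17:46782637-46782666, in the same order. Rpl15, Rpl35, Rps6, Rps27 and Rpl7l1 are read from the minus strand and the others from the plus strand. An annotated start can lie some bases from the real one, so a missing run says only that these letters do not stand there. In Rpl22l1, for example, a long pyrimidine run begins at the base after the annotated first one. The 13 genes with a run had a median summed log2 fold change of -0.46 and the 48 tested genes without one -0.45. Genes whose run lies near but not at the annotated start are among the 48. These medians therefore do not compare mRNAs with and without the motif.

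Genes that work with the ribosomal proteins were compared in the same fit, as single entries. Of 21 tested other mRNAs known for a TOP start, 17 were lower, 1 was higher and 3 did not pass the test, and their median log2 fold change was -0.39. Lower genes made up 38.2% of all tested genes and 56.1% of those with a mean normalised count over 1000. The lowest were Npm1, the nucleolar chaperone nucleophosmin (35538 and 34415 against 15999 and 16275 normalised counts, log2 fold change -1.12), and Fau. Pabpc1, the poly(A)-binding protein, was higher (23205 and 23621 against 27358 and 25519, log2 fold change 0.18, SE 0.049, edgeR adjusted p = 0.0041). Eef1a1, the elongation factor, had a log2 fold change of -0.08 (SE 0.033, edgeR adjusted p = 0.045), a call that was lost in 5 alternatives, among them library totals (adjusted p = 0.88) and the fits without either genistein library (0.35 and 0.21).

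A list of chaperones and transport factors that handle ribosomal proteins, though not always these alone, held 14 genes. All 14 were lower, with a median of -0.91, against the same 38.2% and 56.1% of genes. The lowest were Grwd1, which binds Rpl3, with 2116 and 2000 against 688 and 684 normalised counts (log2 fold change -1.58, SE 0.051, edgeR adjusted p = 1.5e-13), and Ltv1, a small subunit export factor, with 2327 and 2296 against 790 and 803 (log2 fold change -1.54). Pdcd2, a carrier of Rps2, and Ipo9, an importin, changed least, by -0.31 and -0.39.

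In the list of mTORC1 and its controls, 8 of 21 genes were lower, 9 were higher and 4 did not pass the test. Over all tested genes 38.2% were lower and 33.5% higher. The inhibitors Sesn2 and Ddit4 were highest. Sesn2 had 480 and 444 normalised counts in the untreated and 1973 and 1977 in the genistein libraries (log2 fold change 2.09, SE 0.056, edgeR adjusted p = 1.5e-14), and Ddit4 466 and 464 against 1969 and 1890 (log2 fold change 2.05). Larp4, an RNA-binding protein of the La family, and Mlst8, an mTOR complex subunit, were lowest, at -0.82 and -0.60.

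**Figure D5:**
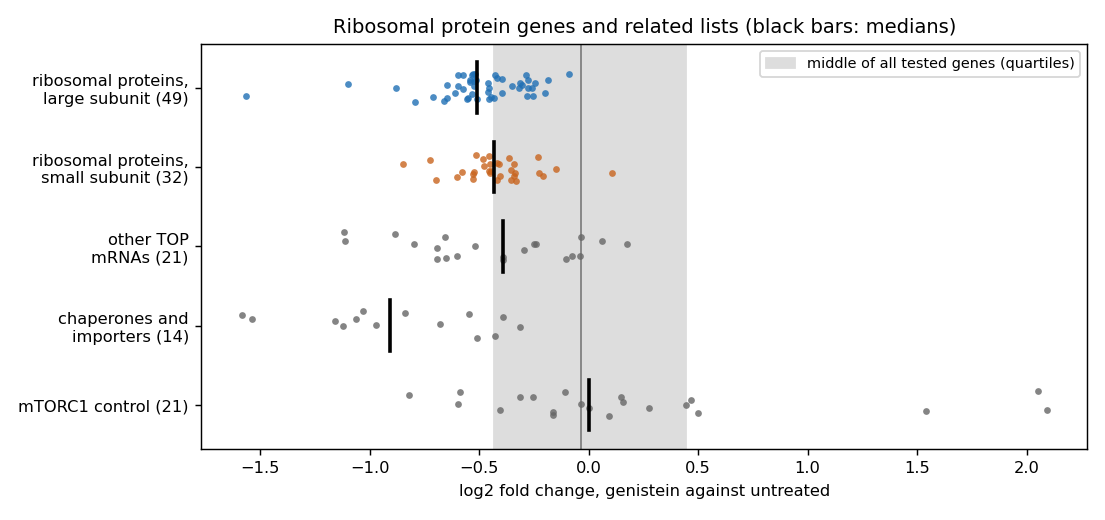
log2 fold change (x axis, genistein against untreated) of the ribosomal protein genes summed with their copies and of 3 related lists of single entries (rows, number tested in brackets). Points are genes, black bars are medians, the grey line is the median of all tested genes and the grey band spans its quartiles. The ribosomal proteins lie at -0.51 (large) and -0.43 (small), the chaperones at -0.91 and the mTORC1 list around 0.00.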

How the data were processed

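Per the labels and the study's methods, total RNA was depleted of ribosomal RNA, made into stranded libraries and sequenced in paired ends. The authors aligned the trimmed reads to mm10 with STAR, keeping reads with up to 100 alignments, and counted them with TEtranscripts over GENCODE M9 genes and repeats, a counter that also uses reads with several alignments. How it divided such reads between a gene and its near-identical copies is not given in the sources used here, so the split of counts between a member and its copies is uncertain. The deposited values are these raw counts, with 28591958 to 31464284 per library. The counting strand is not given in the sources used here, and 40 tested members share exon bases with another annotated gene. The 1 entry without a name (0.00208% to 0.00314% of counts) was left out.

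Counts of 16240 genes and 1118 repeats kept by filterByExpr were compared with edgeR 4.0.16 (TMM, quasi-likelihood test, Benjamini-Hochberg). A standard error is the log2 fold change over the square root of F. Symbols and coordinates came from GENCODE M21 on GRCm38. Copies were found with blastn 2.17.0, and summing them was chosen after seeing the data. Lengths are those of 1 mature mRNA per gene. Members and lists were chosen with earlier results of these data known. Genes were named by role, pair, extremes of each subunit, level per length, nearness to -1 and extremes of each list. In simulated counts, changes were placed only in genes and repeats with higher counts, so the result does not cover low counts. Of these, 99 of 100 changed by 0.5 and 100 of 100 changed by 1 on the log2 scale were called. Among 17063 entries tested, 17 unchanged ones were called. Alternatives were RLE factors, library totals, TMM from genes alone, no filter, DESeq2 1.42.0, -ps entries added to their parents, summed copies, a block for the replicate number and fits without each library in turn. Some genes are counted in the totals but not reported singly here.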

Additional observations from a re-analysis of the deposited data

How the results depend on the processing

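The count of members lower, 83, stayed within 1.5 times under all alternatives. The count past the thresholds of the study, 11, was 2 with the copies summed and 3 with the -ps entries added to their parents. No member was higher with DESeq2, and leaving out a library gave 0 to 1, with 0 without genistein replicate 2. The median over all members was -0.48 with TMM from genes alone, -0.45 with library totals, -0.45 with the copies summed and -0.49 with the -ps entries added. For the large subunit these were -0.51, -0.49, -0.51 and -0.53, and -0.58 without the filter. For the small subunit the median was -0.40 with TMM from genes alone, -0.38 with library totals and -0.47 without the filter, and leaving out a library gave -0.47 to -0.42. The other TOP mRNAs had 2 higher genes with TMM from genes alone and with library totals. Library totals put the median of all genes at 0.04. The difference between Rpl36al and Rpl36a turned to -0.51 with the copies summed and -0.49 with the -ps entries added, and leaving out a library gave -0.011 (without genistein replicate 2) to 0.12. The causes of these shifts were not tested.

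Of 604 values for single genes under the alternatives, 590 kept their direction and side of the threshold, 12 lost the call and 2 gained it. Rplp0 passed the test with DESeq2 (adjusted p = 0.0099) and without the filter (adjusted p = 0.044). Rplp1 did not pass it with library totals (adjusted p = 0.10). The call for Eef1a1 was lost in 5 alternatives. Deviations of libraries with the same replicate number did not go together over all kept entries (correlation -0.03). With 2 libraries a group this is a single correlation, and it cannot show that the number pairs nothing. With the number as a replicate block, 83 members were lower and the median was -0.52. With 2 libraries a group, changes near 0.1 on the log2 scale are at the limit of what the test resolves.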
